A study of Mus musculus with 4 samples.

Results

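Beta-cell-rich islet spots of the mouse pancreas are described here in spatial transcriptomes of 4 sections from mice with caerulein-induced acute pancreatitis. In each section, spots with at least 500 unique molecular identifiers (UMIs, each counting 1 captured molecule) were ranked by the share of their UMIs that came from Ins1, Ins2 and Iapp. The 200 highest-scoring spots of a section that held at least 2 such UMIs were called beta-rich, which gave 800 of the 26960 spots with at least 500 UMIs and of 56869 listed spots. These spots were thus chosen by the levels of the 3 genes, and the levels of the 3 genes are given as a description without a test. The other 26160 spots with at least 500 UMIs served for comparison within each section.

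All mice carried Pdx1-Cre on a C57Bl/6 background and were 4 weeks old. The genotypes compared were Ehmt2 +/+ (2 sections) and Ehmt2 fl/fl (2 sections), Ehmt2 being the gene of the histone H3 lysine 9 methyltransferase G9a. The labels list the sections as separate samples but do not say that each came from its own mouse. Every mouse was fasted for 12 h, received 8 hourly intraperitoneal injections of caerulein, a cholecystokinin analogue, at 50 µg/kg, and was killed 18 h after the initial dose, so that no untreated pancreas enters the comparison. The promoter that drives Cre is active in the progenitors of both exocrine and endocrine pancreas, so that beta cells are among the cells in which the floxed alleles can recombine. A spot covers a small area that can hold several cells of different types, and with summed spots fewer cells of a type and less RNA per cell cannot be told apart. Unless stated, 4 values in a row are given in the order Ehmt2 +/+ replicates 1 and 2 and Ehmt2 fl/fl replicates 1 and 2.

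Depth differed between the sections before any comparison. The sections held 44308142, 8870484, 7137781 and 8622684 UMIs, and the beta-rich spots 1175024, 159772, 231679 and 206441. The median beta-rich spot had 5607.5, 733.5, 1115 and 954 UMIs, against 6358, 878, 978 and 1120 in the other spots. Ehmt2 +/+ replicate 1 therefore stood apart as several times deeper than the rest. Counts of called genes are given without it too, while fold changes of single genes include it. Ehmt2 +/+ replicate 1 and Ehmt2 fl/fl replicate 1 shared a slide, as did both replicates 2, and on each slide the Ehmt2 +/+ section lay on capture area B1 and the Ehmt2 fl/fl section on A1. UMIs of 4 Y-linked genes (Ddx3y, Eif2s3y, Kdm5d and Uty) were found in beta-rich spots of the Ehmt2 fl/fl sections and not of the Ehmt2 +/+ sections, so that genotype, sex and capture area cannot be told apart. The barcodes of beta-rich spots overlapped between sections by 0 to 9 of 200.

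Beta cells make up the core of the mouse islet and store insulin in dense-core granules. Proinsulin is cut into insulin and C-peptide by the prohormone convertases and carboxypeptidase E, and the granules also carry islet amyloid polypeptide, chromogranins and secretogranins. Transcription factors such as Pdx1, Mafa, Nkx6-1, Nkx2-2 and Neurod1 hold the genes of the mature beta cell on, while alpha, delta and PP cells of the same islets make glucagon, somatostatin and pancreatic polypeptide.

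The promoters of Ins1 and Iapp, which chose the spots, and of Gcg, the islet hormone gene of alpha cells that came out high in them, are shown because all hold the E-box CATCTG, a sequence of the kind that Neurod1 and its partners recognise. The 250 bases before each gene's start are from RefSeq on GRCm38.p6, at chr19:52264047-52264296 (+), chr6:142298175-142298424 (+) and chr2:62483654-62483903 (-). Each is written 5′ to 3′ along its gene, with CATCTG or its reverse complement CAGATG in capitals.
Ins1: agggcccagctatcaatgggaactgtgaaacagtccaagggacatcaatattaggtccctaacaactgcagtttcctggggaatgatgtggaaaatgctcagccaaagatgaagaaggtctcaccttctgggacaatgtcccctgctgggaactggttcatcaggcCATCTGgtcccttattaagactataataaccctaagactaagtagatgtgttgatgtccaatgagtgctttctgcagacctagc
Iapp: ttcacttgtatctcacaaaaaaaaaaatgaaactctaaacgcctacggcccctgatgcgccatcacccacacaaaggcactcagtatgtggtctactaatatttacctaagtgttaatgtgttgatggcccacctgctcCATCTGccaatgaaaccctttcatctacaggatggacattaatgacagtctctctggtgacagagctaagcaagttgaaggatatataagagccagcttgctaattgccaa
Gcg: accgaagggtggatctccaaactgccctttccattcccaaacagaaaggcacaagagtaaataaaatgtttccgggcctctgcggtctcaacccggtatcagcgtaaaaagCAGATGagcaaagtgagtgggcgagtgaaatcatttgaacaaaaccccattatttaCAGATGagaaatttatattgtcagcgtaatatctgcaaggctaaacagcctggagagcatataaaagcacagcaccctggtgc
The match lay 84 to 79 bases upstream of the start in Ins1 and 111 to 106 in Iapp, and the 2 matches of Gcg lay 139 to 134 and 83 to 78 bases upstream. TAAT, the core that homeodomain factors bind, occurred 3, 5 and 2 times on either strand. On either strand, CATCTG was present in 14.4% of the 32851 promoters of that table and in 15.6% of the 160 promoters of genes called higher in beta-rich spots, and TAAT in 54.9% and 43.8%. A match of letters is a description and not a site of binding.

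The 3 genes made up 2.74, 1.85, 14.7 and 2.20% of all UMIs of the beta-rich spots, and 0.0148, 0.0196, 0.110 and 0.0156% of those of the other spots. The beta-rich spots, a small part of each section, held 83.7, 66.2, 82.8 and 79.0% of all UMIs of these genes in spots with at least 500 UMIs. Ins2, the more widely conserved of the mouse insulin genes, stood at 16701, 12017, 100290 and 14023 counts per 1000000 UMIs (CPM) in the beta-rich spots, and at 92.7, 131, 687 and 92.0 in the other spots. Ins1, the rodent retrogene copy, stood at 5711, 3887, 39801 and 6346 CPM, and Iapp, the gene of islet amyloid polypeptide, at 4990, 2585, 6885 and 1637. For both insulin genes Ehmt2 fl/fl replicate 1 was far above the other 3 sections, while the other Ehmt2 fl/fl section was near the Ehmt2 +/+ sections.

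**Figure D1:**
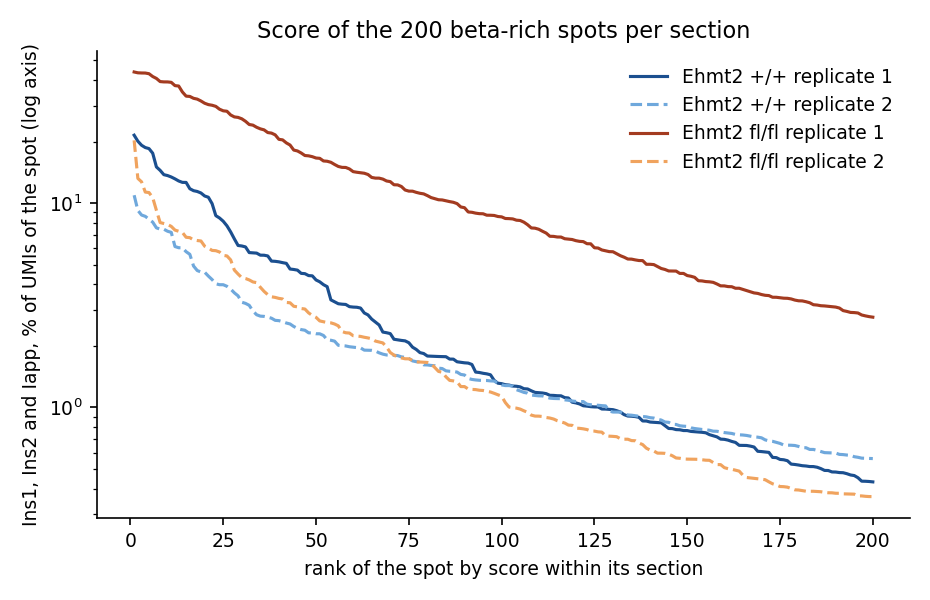
Share of a spot's UMIs from Ins1, Ins2 and Iapp (percent, log axis) against the rank of the spot within its section, 1 line for each of the 4 sections. The line of Ehmt2 fl/fl replicate 1 lies above the other 3 at every rank, from 43.9% to 2.76%, and those of the other sections end between 0.365% and 0.561%.

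The spots were not equally rich in the 4 sections. The score ran from 0.431 to 21.5% (median 1.30%) in Ehmt2 +/+ replicate 1, from 0.561 to 10.9% (median 1.28%) in Ehmt2 +/+ replicate 2, from 2.76 to 43.9% (median 8.49%) in Ehmt2 fl/fl replicate 1 and from 0.365 to 20.3% (median 1.09%) in Ehmt2 fl/fl replicate 2. The last spot taken and the first left out had scores of 0.431 and 0.431%, 0.561 and 0.559%, 2.76 and 2.73%, and 0.365 and 0.362%, so that nothing separated them. At a score of at least 2%, 75, 57, 254 and 68 spots would have been taken. In the 2 sections with the fewest UMIs of these genes, 17 (Ehmt2 +/+ replicate 2) and 34 (Ehmt2 fl/fl replicate 2) of the 200 beta-rich spots rested on fewer than 5 UMIs of the 3 genes, against 1 and 0 in the others. All 3 genes were seen in 192, 123, 183 and 110 of the 200 spots.

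Genes that the ranking did not use spoke to the label. Chga, the gene of the granule protein chromogranin A, had UMIs in 195, 148, 185 and 134 of the 200 beta-rich spots, and Gcg in 189, 77, 125 and 60, so that most of these spots held UMIs of an endocrine granule gene and many held UMIs of the alpha-cell hormone. Digestive enzymes nonetheless gave 53.7, 43.3, 13.4 and 18.2% of all UMIs in these spots and 61.9, 52.4, 21.2 and 20.3% in the other spots. Since enzyme UMIs are part of the total by which the score is divided, nothing is read from the lower share. By these counts the beta-rich spots held endocrine and exocrine transcripts together. Whether the enzyme UMIs came from exocrine cells within the spots or from tissue around them was not tested.

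To set genes outside the rule beside the other spots, UMIs were summed over the beta-rich and over the other spots of each section and tested with edgeR's quasi-likelihood test, with the section as a block, TMM scaling and Benjamini-Hochberg adjustment over all genes. For these genes the UMIs of Ins1, Ins2 and Iapp were left out of the total behind each CPM. Of 19609 genes tested, 157 were called higher in beta-rich spots at an adjusted p under 0.05 (0.801%) and 14 lower (0.0714%), and 136 of the 171 had the same direction of CPM in all 4 sections. The median log2 fold change over all genes tested was -0.27, and 0.17 without TMM scaling, so that fold changes are to be read against that median. Without Ehmt2 fl/fl replicate 1, 95 genes were called higher, and without the deep Ehmt2 +/+ replicate 1 it was 111. Of these calls, 21 genes stayed called higher under the main setting and every alternative of this comparison, and 0 genes lower.

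Most of the listed dense-core granule genes were higher in the beta-rich spots. Chga was at 4372, 2965, 9295 and 2868 CPM in beta-rich spots against 25.4, 41.4, 102 and 46.2 in other spots, a log2 fold change of 6.06 ± 0.38 (SE, n = 4 sections, edgeR adjusted p = 3.03e-53). Pcsk1n, whose product proSAAS inhibits prohormone convertase 1, was at 994, 1205, 3157 and 971 CPM against 7.91, 20.8, 46.4 and 19.5, a log2 fold change of 5.68 ± 0.35 (SE). Both genes were at least 49.7 times as high in the beta-rich spots of every section. Resp18, a granule protein of endocrine cells, changed by 5.08 ± 0.34 (SE) on the log2 scale, Syt13, a synaptotagmin of endocrine cells, by 4.80 ± 0.34 and Chgb, chromogranin B, by 4.74 ± 0.34. The secretogranin genes Scg2, Scg3 and Scg5 rose by 4.12, 3.82 and 3.82. The enzymes that mature proinsulin were also higher, with log2 fold changes of 3.33 ± 0.38 (SE) for Pcsk2, 3.10 ± 0.51 for Pcsk1 and 1.32 ± 0.33 for Cpe, although Pcsk1 rested on 21, 1, 3 and 1 UMIs. Of the 18 listed genes of granules and prohormone processing, 15 were called higher and 0 lower, with a median log2 fold change of 3.50. Pam, Vgf and Syt7 were not called by edgeR. DESeq2 called 14 of the list higher, among them Pam but not Pcsk1.

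Beta-cell genes outside the rule were higher in part, and they varied more between sections. Mafa, the factor that marks mature beta cells, was at 263, 230, 445 and 39.6 CPM in beta-rich spots and at 2.14, 14.4, 25.9 and 24.3 in other spots, with a log2 fold change of 3.72 ± 0.35 (SE, edgeR adjusted p = 7.34e-23). The deepest section showed Mafa 123 times as high in beta-rich as in other spots, and Ehmt2 fl/fl replicate 2 showed it 1.63 times as high. The SE of the fit does not show this range, since edgeR shares its estimate of spread over genes. Ppp1r1a, a phosphatase inhibitor abundant in beta cells, rose by 4.15 ± 0.37, Ucn3, a peptide of mature beta cells that acts on delta cells, by 3.60 ± 0.36 and G6pc2, the islet glucose-6-phosphatase, by 3.40 ± 0.38. Slc30a8, the granule zinc transporter ZnT8, rose by 2.84 ± 0.38, and the gap junction gene Gjd2, the sulfonylurea receptor gene Abcc8 and the factor Nkx6-1 by 2.93, 2.49 and 2.66. Of the 24 listed genes 12 were called higher and 0 lower, with a median of 1.42. Genes not called included Slc2a2, the glucose transporter GLUT2 (log2 fold change 1.01 ± 0.43, SE, edgeR adjusted p = 0.51), Pdx1 (0.84 ± 0.34, adjusted p = 0.46) and Kcnj11, the pore of the ATP-sensitive potassium channel (0.59 ± 0.38, adjusted p = 0.74). Slc2a2 rested on 13, 6, 3 and 2 UMIs. DESeq2 called 9 of the list higher, among them Pdx1, but not G6pc2, Gjd2, Slc30a8 or Nkx6-1.

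**Figure D2:**
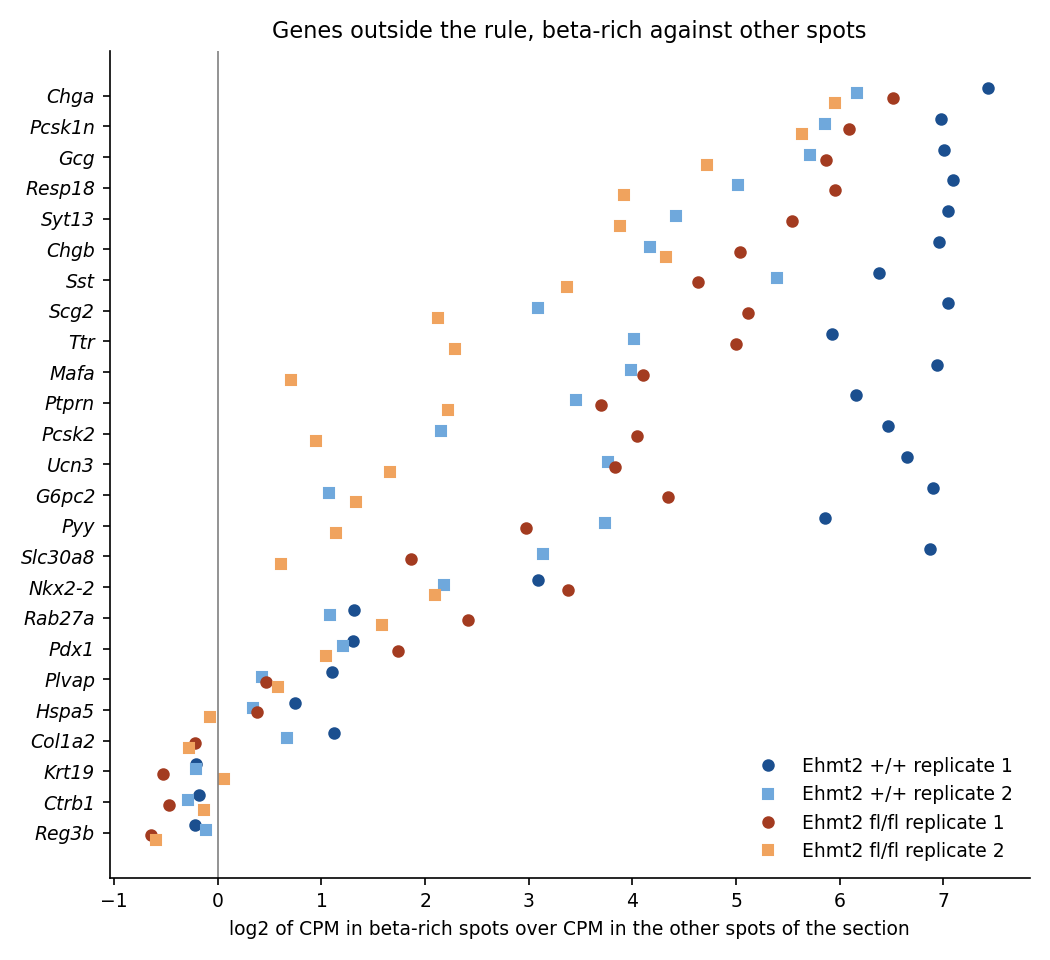
Log2 of a gene's CPM in beta-rich spots over its CPM in the other spots of the same section, 1 point for each of the 4 sections, for genes that did not choose the spots, with the line at 0 marking equal CPM. Chga, Pcsk1n and Gcg lie far right of the line in all 4 sections, Mafa and G6pc2 spread widely with Ehmt2 +/+ replicate 1 farthest right, and Ctrb1, an acinar enzyme, and Reg3b lie just left of it.

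Among 12 listed endocrine transcription factors, 5 were called higher (median 1.04). Nkx2-2, needed for beta-cell identity, was at 112, 153, 309 and 158 CPM against 13.2, 33.7, 29.7 and 37.1, a log2 fold change of 2.23 ± 0.31 (SE) with no overlap between the spot classes. Pax6 rose by 3.0 ± 0.40, Insm1 by 2.08 ± 0.37, Mlxipl, the glucose-responsive factor ChREBP, by 1.91 ± 0.34 and Neurod1 by 1.59 ± 0.38. DESeq2 called Nkx2-2, Pax6 and Mlxipl and neither Insm1 nor Neurod1. In Ehmt2 fl/fl replicate 2, however, Neurod1 stood at 24.8 CPM in beta-rich and 25.5 in other spots, and Insm1 at 14.9 and 19.1. Of 9 genes of calcium entry and exocytosis, 2 were called, Snap25, a SNARE of granule fusion (5.04 ± 0.44), and Rab27a, a GTPase of granule docking (1.14 ± 0.30).

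Transcripts of the other endocrine cells were also higher in the beta-rich spots. Gcg stood at 2720, 1122, 2495 and 619 CPM in beta-rich spots and at 21.1, 21.3, 42.8 and 23.5 in other spots, a log2 fold change of 5.38 ± 0.35 (SE, edgeR adjusted p = 2.91e-48). Sst, the somatostatin gene of delta cells, stood at 669, 880, 531 and 193 CPM against 8.03, 21.0, 21.4 and 18.8, a change of 4.53 ± 0.33. Both hormones were at least 10.3 times as high in the beta-rich spots of each section. Of the 13 listed markers of alpha, delta, PP and epsilon cells, 7 were called higher (Gcg, Ttr, Sst, Pyy, Ppy, Rbp4 and Irx1), with a median of 2.01, and DESeq2 called 5, without Ppy and Irx1. Together they summed to 4191, 2532, 3851 and 1164 CPM against 52.9, 129, 289 and 292, and Gcg was the most abundant of them in every section. Hhex of delta cells had no UMI in the beta-rich spots of Ehmt2 +/+ replicate 2 and Irx2 of alpha cells none in Ehmt2 fl/fl replicate 2. How far these cells add to the granule genes, which all endocrine cells share, was not tested.

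Within the 200 spots Chga, Pcsk1n and Gcg were highest in the first 50 ranks of each section, while Sst in Ehmt2 fl/fl replicate 1 stood at 820 CPM in ranks 1 to 50 and at 880 in the next 50. From ranks 1 to 50 to ranks 151 to 200, Chga went from 16054 to 1065 CPM in Ehmt2 +/+ replicate 1, from 7608 to 1074 in Ehmt2 +/+ replicate 2, from 20958 to 2417 in Ehmt2 fl/fl replicate 1 and from 7924 to 746 in Ehmt2 fl/fl replicate 2. The last 50 spots were still above the spots ranked from 201 to at most 400, which had 352, 574, 1165 and 350 CPM of Chga. Gcg followed the same course, from 7359, 2203, 4317 and 1549 CPM in the first 50 spots to 942, 504, 729 and 153 in the last 50. Enzyme genes, which are in the divisor of the score so that nothing is read from their order, gave 36.4, 34.0, 5.42 and 10.9% of UMIs in the first 50 spots and 59.2, 50.4, 20.4 and 22.5% in the last 50. Across the 200 spots of a section the score and the Chga share had Spearman's rho of 0.86, 0.59, 0.82 and 0.69, a description only, since both are shares of the same spot's UMIs and spots of a section share tissue and library. Iapp per 100 insulin UMIs had no common course with rank. From the first to the last 50 spots it went from 21.3 to 23.1, from 17.6 to 10.4, from 4.99 to 3.60 and from 7.20 to 9.21.

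**Figure D3:**
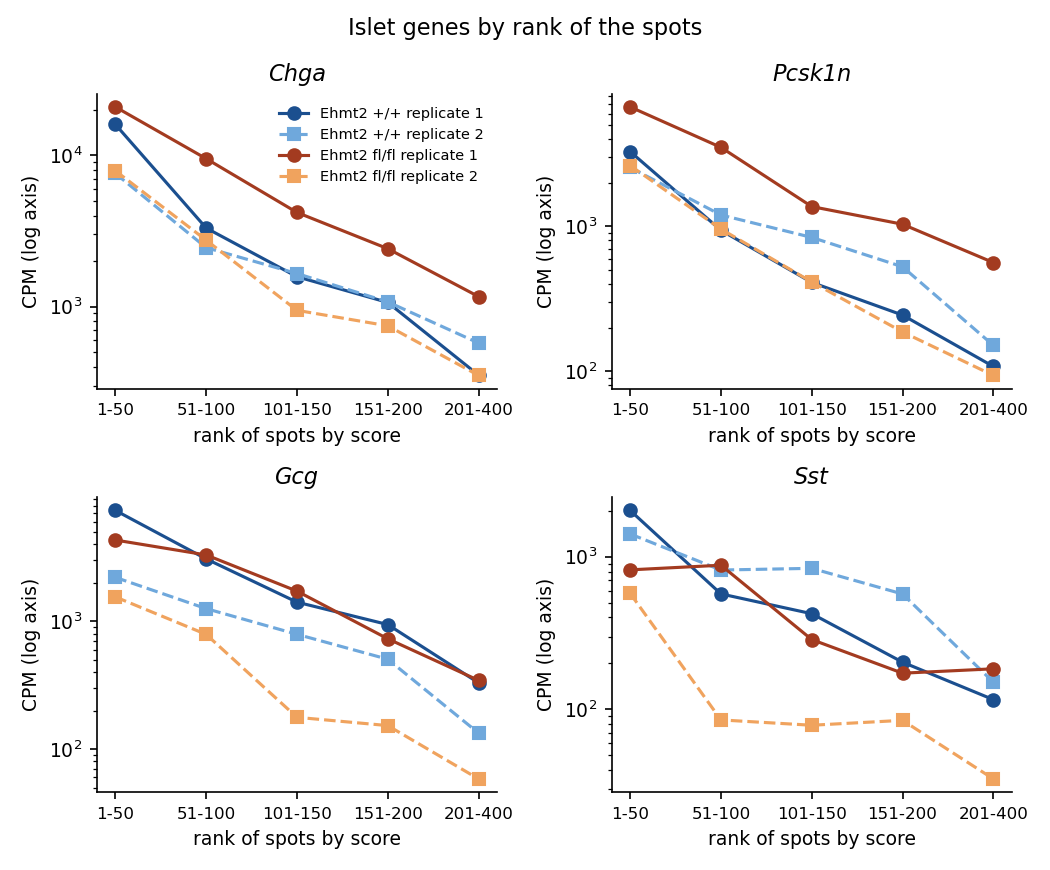
CPM (log axis) of Chga, Pcsk1n, Gcg and Sst in bands of spots ordered by score, ranks 1 to 50 up to 151 to 200 and then ranks above 200 (the last band of Ehmt2 fl/fl replicate 2 ends at rank 388), 1 line for each of the 4 sections. Chga and Gcg are lower from each band to the next in each section, and Sst is low from the second band on in Ehmt2 fl/fl replicate 2.

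No gene of the lists for other cells and for stress was called by edgeR between the spot classes. None of 23 acinar enzyme genes, 11 duct genes, 10 endothelial genes, 10 macrophage genes, 17 genes of endoplasmic reticulum (ER) folding or 7 dedifferentiation genes passed the edgeR test, with medians of -0.69, -0.43, 0.13, -0.56, -0.11 and -0.68 beside -0.27 over all genes. At an unadjusted p under 0.05 these lists had 8, 5, 0, 3, 0 and 2 genes. DESeq2 called acinar genes lower, among them Pnliprp2 and Zg16, the duct keratin gene Krt7 higher and none of the other 4 lists. The other 12 lists, from fibroblasts to H3K9 methylation, likewise had 0 genes called by edgeR, with medians from -0.81 for the 7 Reg genes to 0.30, and 11 genes at an unadjusted p under 0.05 in all, of which Reg genes made 5. DESeq2 called Reg3a and Reg3b lower and no other gene of those 12 lists. Without TMM scaling 4 ER, 3 endothelial and 1 duct gene were called higher and the medians of the first 6 lists were -0.18, 0.03, 0.63, -0.09, 0.43 and -0.14, beside 0.17 over all genes. The endothelial list summed to 276, 281, 921 and 773 CPM in beta-rich and 118, 235, 661 and 571 CPM in other spots, and Plvap, a gene of fenestrated capillaries, was its most abundant gene in each section. Hspa5, the ER chaperone BiP, was at 571, 485, 1528 and 882 CPM against 339, 384, 1172 and 928, and its fitted log2 fold change was -0.11 ± 0.29 (SE, edgeR adjusted p = 0.94). The sign for the ER genes turned with the scaling, since 15, 16, 14 and 9 of the 17 had higher CPM in beta-rich spots. Aldh1a3, a marker of dedifferentiated beta cells, had 4, 2, 5 and 6 UMIs in beta-rich spots, and Neurog3, the factor of endocrine progenitors, 0, 1, 2 and 1, for which at this depth no difference was detectable.

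Of the 14 genes called lower, the 5 named by size had few UMIs. Car3, a carbonic anhydrase of fat and muscle, changed by -1.85 ± 0.43 (SE), with 2, 3, 5 and 7 UMIs in beta-rich spots, and Alox15, a lipoxygenase of macrophages, by -2.05 ± 0.52, with 0, 1, 2 and 6. Tagap, Dnajc16 and Ifngr2 changed by -3.59, -3.03 and -2.26 and each had at most 6 UMIs in the beta-rich spots of any section. The number called lower depended on how many spots were taken, with 175 for the 100 and 906 for the 50 highest-scoring spots per section, beside 155 and 153 called higher. Without Ehmt2 fl/fl replicate 1 only 2 genes in all were called lower, and without Ehmt2 +/+ replicate 2 and Ehmt2 fl/fl replicate 2 only 4 and 5.

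Background counts also differed between the sections. Genes of the olfactory receptor family were taken as a measure of background, an assumption that was not tested. They summed to 490, 7767, 8248 and 14066 CPM in beta-rich spots and 308, 5793, 9956 and 14406 CPM in other spots, over 1107 genes with UMIs. Ehmt2 +/+ replicate 1 had the least of this background and the largest ratio of beta-rich to other spots for Mafa, G6pc2, Ucn3, Slc30a8 and Pyy, and Ehmt2 fl/fl replicate 2 had the most of it and the smallest ratio for each of these but G6pc2. The sections between them did not keep that order, since Ehmt2 fl/fl replicate 1 had more background than Ehmt2 +/+ replicate 2 and larger ratios for Mafa and Chga. The 5 genes were chosen after their values were seen. The part of the background in the spread of these ratios was not tested.

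The study was made to compare genotypes, and 3 ratios of hormones were therefore set side by side, the first 2 as a description since their genes chose the spots. Ins1 gave 25.5, 24.4, 28.4 and 31.2% of insulin UMIs in the beta-rich spots, so that both Ehmt2 fl/fl sections were higher, by 4.82 percentage points in the mean. In the other spots the values were 25.9, 24.5, 34.7 and 29.9%. Iapp gave 22.3, 16.3, 4.91 and 8.04 UMIs per 100 insulin UMIs, a mean of 19.3 ± 4.25 (SD, n = 2) in Ehmt2 +/+ and 6.48 ± 2.21 (SD, n = 2) in Ehmt2 fl/fl. The ratio was lower in Ehmt2 fl/fl on both slides, with differences of -17.3 and -8.22, but in the other spots, with 17.8, 13.1, 4.94 and 19.3, the genotypes overlapped. As a level, Iapp was highest in Ehmt2 fl/fl replicate 1 and lowest in Ehmt2 fl/fl replicate 2. Insulin per 100 Chga UMIs was 527 and 546 in Ehmt2 +/+ but 1767 and 726 in Ehmt2 fl/fl, so that the divisor of the Iapp ratio differed between sections too. Per 100 Chga UMIs, Iapp was 117, 88.8, 86.8 and 58.4.

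Gcg, which did not choose the spots, gave 62.2, 37.8, 26.8 and 21.6 UMIs per 100 Chga UMIs. The groups did not overlap, with means of 50.0 ± 17.2 (SD, n = 2) in Ehmt2 +/+ and 24.2 ± 3.71 (SD, n = 2) in Ehmt2 fl/fl. The difference was -25.8, and -13.6 without the deep Ehmt2 +/+ replicate 1. A two-sided exact permutation test gave p = 0.333, the smallest value that 2 sections against 2 allow. In the other spots the ratio was 83.3, 51.6, 42.1 and 51.0. As a level in beta-rich spots, Gcg was not called between genotypes (log2 fold change -1.32 ± 0.75, SE, edgeR adjusted p = 0.46, or 0.02 ± 0.61 without TMM scaling).

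**Figure D4:**
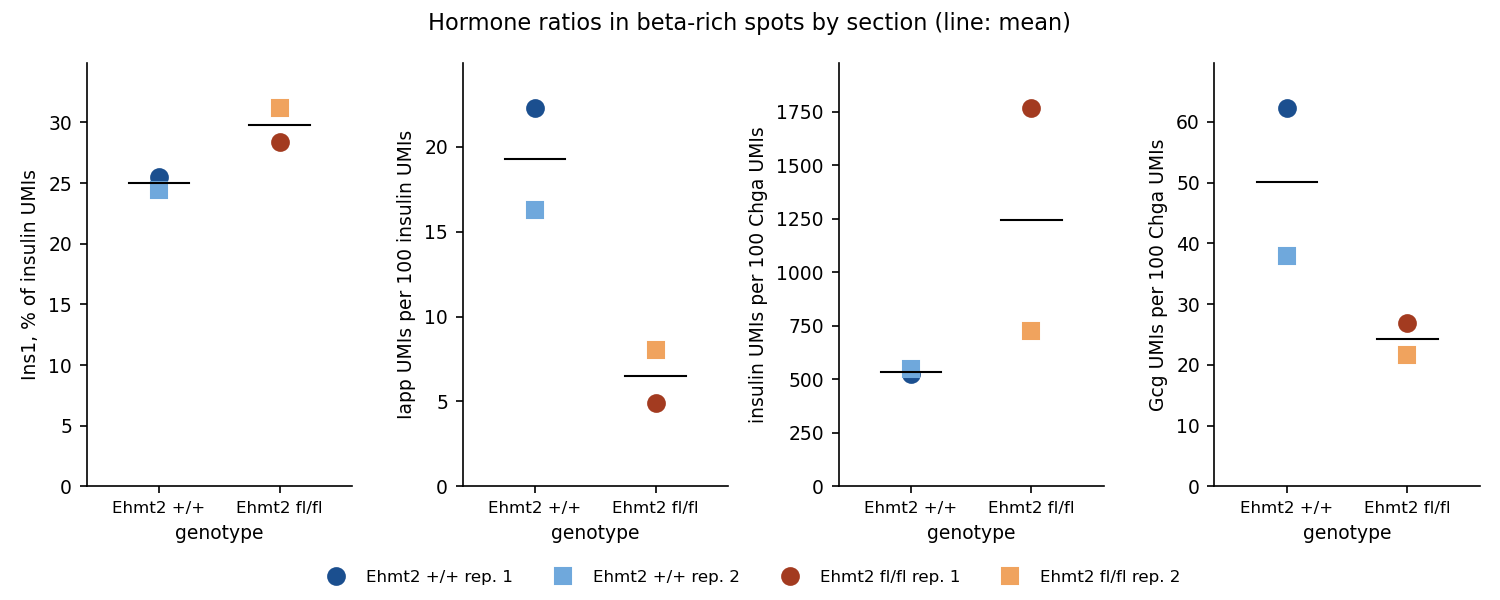
Ins1 as percent of insulin UMIs, Iapp per 100 insulin UMIs, insulin per 100 Chga UMIs and Gcg per 100 Chga UMIs in the beta-rich spots of each of the 4 sections (points) by genotype, with the genotype mean as a line. Both Ehmt2 fl/fl sections lie above the Ehmt2 +/+ sections for the Ins1 share and below them for Iapp per insulin and Gcg per Chga, and the insulin ratio of Ehmt2 fl/fl replicate 1 stands apart at 1767.

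How many spots carried a beta-cell UMI was compared at an equal number of UMIs per spot. With each spot thinned to 500 UMIs, 9.49% (95% Clopper-Pearson interval 8.77 to 10.2), 10.6% (9.89 to 11.3), 24.9% (23.8 to 26.0) and 10.6% (9.86 to 11.4) of the spots with at least 500 UMIs had at least 1 UMI of Ins1, Ins2 or Iapp. The intervals cover counting error only. Spots with under 100 UMIs also held UMIs of these genes, at 0.0740, 0.0330, 0.186 and 0.0307% of their UMIs. How many of the positive spots come from such a background was not tested, so the shares are not read as an extent of beta cells. Ehmt2 fl/fl replicate 1 stood above all other sections and Ehmt2 fl/fl replicate 2 was within the interval of Ehmt2 +/+ replicate 2. Without thinning the shares were 32.3, 15.1, 34.5 and 16.9%, with the deep Ehmt2 +/+ replicate 1 no longer the lowest. The difference between genotype means was 7.72 percentage points, and 0.577 without Ehmt2 fl/fl replicate 1. With 500 UMIs drawn after leaving out the digestive enzymes, the shares were 15.7, 13.0, 27.9 and 11.2%, and for at least 2 such UMIs at 500 UMIs in all they were 4.44, 4.35, 11.6 and 3.71%. By both measures Ehmt2 fl/fl replicate 2 was the lowest section, so that the order of the genotypes differed between the slides.

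Ehmt2 itself rested on few UMIs in the beta-rich spots of 3 sections. It had 35, 1, 5 and 5 UMIs there, or 30.6, 6.38, 25.3 and 24.8 CPM, and 19.5, 3.90, 9.68 and 11.8 CPM in the other spots. In Ehmt2 +/+ replicate 1, 0% of the olfactory receptor genes were at or above Ehmt2 in the beta-rich spots. In Ehmt2 +/+ replicate 2, 64.6% were, and in Ehmt2 fl/fl replicates 1 and 2 it was 3.07 and 14.5%. Ehmt2 had too few UMIs to be tested between genotypes in beta-rich spots, and in the other spots its log2 fold change was -2.71 ± 0.79 (SE, edgeR adjusted p = 0.17), a value that rests on the scaling, since it was -0.13 ± 1.24 without TMM and the CPM was lowest in Ehmt2 +/+ replicate 2. Whether the probes lie in the deleted part of the gene is not given in the sources used here.

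Between genotypes, 14 of the 2902 genes tested in the beta-rich spots were called by edgeR (0.482%), 3 higher and 11 lower in Ehmt2 fl/fl (0.379% lower). None was among the listed beta-cell, granule or endocrine transcription factor genes, and DESeq2 called none of those. Of these lists 2, 1 and 0 genes had an unadjusted p under 0.05. Library sizes without TMM gave edgeR calls for Abcc8 (2.10), Chgb (1.88), Syt13 (1.82) and Mlxipl (1.90), all higher, as were 1149 of all 2902 genes. Il1rn, the interleukin-1 receptor antagonist, was at 39.4, 57.4, 1083 and 877 CPM, a log2 fold change of 3.49 ± 0.32 (SE, n = 2 against 2, edgeR adjusted p = 0.048). Tgfbi, a matrix protein induced by TGF-beta, was at 17.5, 19.1, 273 and 357 CPM (3.16 ± 0.38), and Ccl6, a chemokine of myeloid cells, at 53.4, 51.0, 708 and 634 CPM (2.72 ± 0.31). The filter asks for enough counts in any 2 sections. Il1rn and Tgfbi passed it only through the Ehmt2 fl/fl sections, where they were high, and both rest on few UMIs in Ehmt2 +/+ replicate 2. The pancreatic injury protein Reg2 was at 1736, 931, 121 and 104 CPM (-4.52 ± 0.51), Reg3b at 3488, 2959, 481 and 287 CPM (-4.00 ± 0.40) and the elastase gene Cela2a at 63923, 54815, 6532 and 7241 CPM (-4.02 ± 0.40). For each of the 14 genes the genotypes did not overlap. The genes were picked by the test, and with 2 sections against 2 a gene without a difference would separate with a probability of 0.333. The share of all genes without overlap was not counted, so nothing is read from this.

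In the other spots the genotypes did not overlap for these 14 genes either, again without a count over all genes. None of the 14 was called when the spot classes were compared for their genotype difference. Il1rn was at 41.3, 67.0, 1149 and 835 CPM there, Reg2 at 1963, 1017, 194 and 124 and Cela2a at 69192, 63314, 7930 and 6889. On slide 1 Il1rn was 27.5 times as high in Ehmt2 fl/fl as in Ehmt2 +/+ in beta-rich and 27.8 times in other spots, and on slide 2 it was 15.3 and 12.5 times. Of the listed acinar enzyme genes, 6 of 20 tested were called lower and 0 higher (median -2.84, beside 0.00 over all genes), among them Rnase1, Clps and Zg16, and of the Reg genes 3 of 6 were lower and 0 higher (median -2.89). Both counts lie at the edge of the threshold. The called genes of both lists had an edgeR adjusted p of 0.0482, while Prss2, Cela3b, Ctrl and Reg1 were at 0.0501 and not called. DESeq2 called 19 of the 20 and 6 of the 6 lower, beside 52 of all 1945 genes with an adjusted p. Both lists stayed lower in the median without TMM scaling, at -1.58 and -1.61. Macrophage genes had a median of 1.29 with 0 of 5 called. Without TMM scaling 5 of 5 were called higher, as were 1149 of all 2902 genes. In the other spots 25 of 20040 genes were called (0.125%), 11 higher and 14 lower. With the slide as a block, 11 genes were called higher and 1 lower. A genotype fit with 1 section left out holds 1 section of that genotype, so its spread comes from the other genotype alone. The counts were 0 and 0 without Ehmt2 fl/fl replicate 2, 1 and 0 without Ehmt2 fl/fl replicate 1, 222 and 168 without Ehmt2 +/+ replicate 1 and 9409 and 7320 without Ehmt2 +/+ replicate 2. In the main fit edgeR called none of 23 acinar enzyme genes in the other spots, with a median of -4.03 beside 0.26 over all genes. Of the 23, 13 had an unadjusted p under 0.05, as had 1063 of all 20040 genes. Library sizes without TMM gave 12 genes called lower by edgeR, among them Ctrc (-1.89), Clps (-2.70) and Rnase1 (-2.47), with a median of 1.71 over all genes. DESeq2 called 22 of the 23 lower, beside 497 of all 2556 genes with an adjusted p. Both comparisons come from the same sections, so the likeness is not independent.

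The calls between genotypes moved with the sections and the settings used. In fits with 1 section left out, the spread came from the genotype that kept both sections. Without Ehmt2 fl/fl replicate 1, edgeR called 0 genes in beta-rich spots, with 181 at an unadjusted p under 0.05. Without Ehmt2 +/+ replicate 2 it called 493 and without Ehmt2 +/+ replicate 1 it called 73. With the slide as a block 73 genes were called, 12 of the 14 among them. Without TMM scaling 1149 genes were called higher and 31 lower, against 3 and 11, as the median of all genes moved to 1.26.

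**Figure D5:**
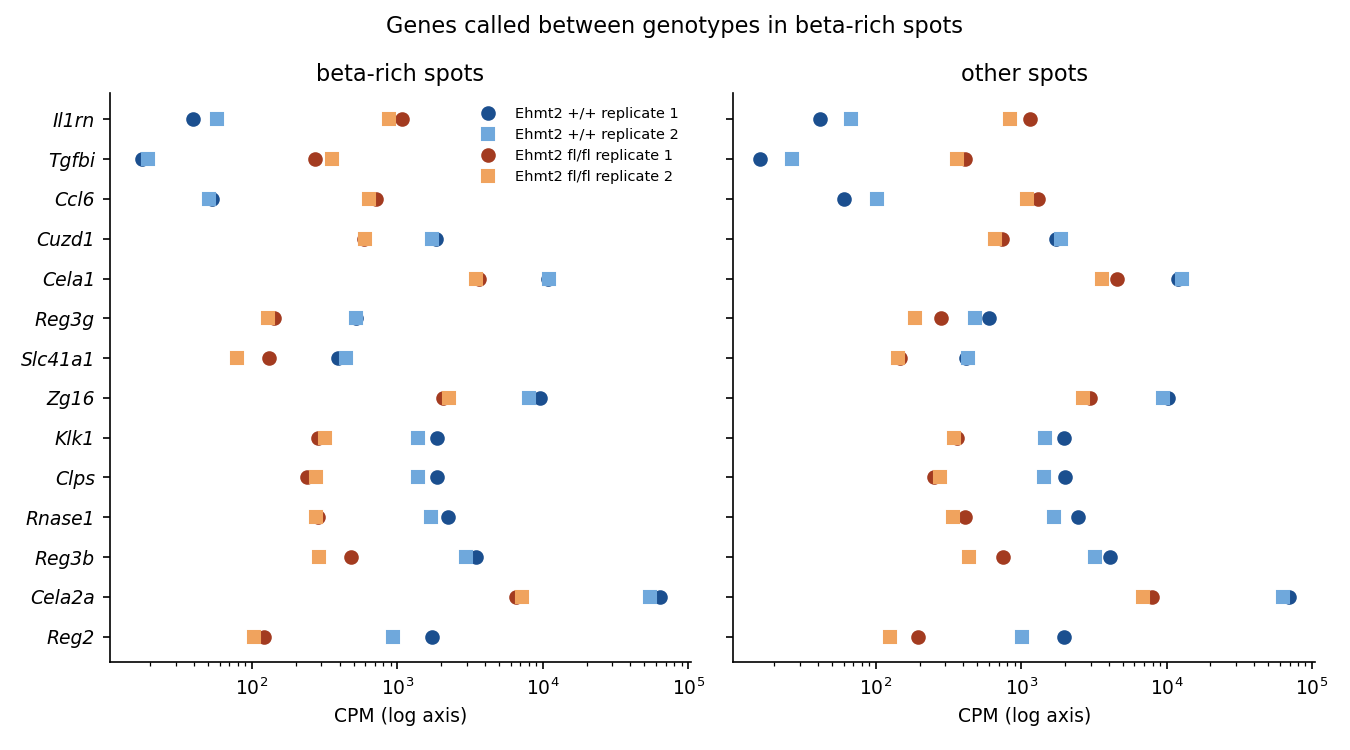
CPM (log axis) of the 14 genes called between genotypes in the beta-rich spots, 1 point for each of the 4 sections, in beta-rich spots (left) and other spots (right). The genotypes do not overlap for any of the genes in beta-rich spots, and they do not overlap in the other spots either. The genes were picked by the test, and the share of all genes without overlap was not counted.

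Among islet genes, the largest genotype differences in the beta-rich spots did not pass the test. Slc30a8 was at 135, 76.5, 60.7 and 34.7 CPM (log2 fold change -2.19 ± 0.49, SE, edgeR adjusted p = 0.15), Sst at 669, 880, 531 and 193 CPM (-2.01 ± 0.46, adjusted p = 0.16, called lower by DESeq2) and Pyy, peptide YY, at 220, 140, 147 and 49.5 CPM (-1.89 ± 0.55, adjusted p = 0.22). Without TMM scaling these 3 values were -0.86, -0.80 and -0.58. Mafa, at 263, 230, 445 and 39.6 CPM, spread more within Ehmt2 fl/fl than between genotypes (-1.01 ± 0.88, adjusted p = 0.62). Chga (-0.25 ± 0.58, adjusted p = 0.88), Pcsk1n (-0.02 ± 0.52, adjusted p = 0.99) and Hspa5 (0.24 ± 0.35, adjusted p = 0.79) had differences smaller than their errors. Without TMM scaling the values of Chga, Pcsk1n and Hspa5 were 1.04, 1.20 and 1.51, so that the sign for Chga and Pcsk1n turned with the scaling, as it did for Mafa (0.27). Xbp1, a transcription factor of the ER stress response, differed by -1.80 ± 0.37 (edgeR adjusted p = 0.12) and was called lower by DESeq2, and its list had a median of -0.41, or 0.96 without TMM scaling. Of the 24 beta-cell genes only 11 had enough UMIs to be tested here, with a median of -0.66, and 14 of 18 granule genes, with a median of -0.26. These medians were 0.61 and 1.06 without TMM scaling, beside 1.26 over all genes.

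Whether a genotype difference was larger or smaller in beta-rich than in other spots was tested as an interaction on all 8 sums with the section as a block. Of 20015 genes 14 were called (0.0699%), 7 with a higher and 7 with a lower value in beta-rich spots (0.035% lower), with adjusted p from 3.62e-05 to 0.0385. The median over all genes was 0.45, or -0.43 without TMM scaling, where 2 genes were called higher and 89 lower. The lower group held 2 of 24 beta-cell genes, Slc30a8 (-3.26 ± 0.54, SE, edgeR) and Mafa (-1.90 ± 0.43), and 3 of 13 genes of other islet cells, Irx1 of alpha cells (-3.45 ± 0.79), Ppy (-3.07 ± 0.73) and Pyy (-1.98 ± 0.46). More islet genes were among the 89 called lower without TMM scaling. They included the beta-cell genes G6pc2 (-2.08) and Ucn3 (-2.62), the granule genes Chgb (-1.36) and Scg2 (-1.92), Gcg (-1.13) and Sst (-1.87). Chga (-0.64) and Pcsk1n (-0.61) were not called in that fit. Slc30a8 was at 1.15, 8.72, 16.7 and 22.8 CPM in the other spots, and Ppy at 0.352, 6.38, 7.49 and 10.6, so that the values of the other spots were lowest in Ehmt2 +/+ replicate 1 and highest in Ehmt2 fl/fl replicate 2, as was the olfactory receptor sum, whose part was not tested. The higher group held Rab27a, at 169, 172, 491 and 277 CPM in beta-rich and 67.8, 81.5, 92.1 and 92.2 in other spots (1.66 ± 0.39), and Nfasc, a cell adhesion gene, at 105, 102, 228 and 163 against 86.0, 75.0, 75.9 and 87.2 (1.82 ± 0.42). Rab27a lost its call without TMM scaling (0.79 ± 0.24, SE, edgeR adjusted p = 0.13). Gadd45g, a stress-response gene, was at 78.8, 70.1, 162 and 134 CPM against 72.2, 56.7, 67.6 and 61.1 (1.95 ± 0.45). DESeq2 called 0 of the 20015 genes (382 at an unadjusted p under 0.05), thinning each spot to 500 UMIs left 0 (753), and leaving out Ehmt2 fl/fl replicate 2 left 0 (509). Leaving out Ehmt2 +/+ replicate 1 or Ehmt2 fl/fl replicate 1 left 2 and 1, and leaving out Ehmt2 +/+ replicate 2 gave 1665.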

How the data were processed

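Pancreas sections (FFPE) of mice given caerulein were assayed by CytAssist Visium, in which probe pairs hybridised to RNA are captured on barcoded spots. The authors used Space Ranger with mm10 and a probe set for mouse, and what they deposited are UMI counts, whole numbers without normalization, for 32589 features per spot. Their later normalised values were not used here. The 304 features of deprecated probes were left out, leaving 32285. The alignment files mark tissue positions without barcodes, so spots were kept by UMIs (at least 500). In Ehmt2 +/+ replicate 1 this gave 6144 spots where 5818 positions were marked as tissue, so some lay outside the marks. No doublet caller was run, as spots are not cells.

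Genotypes were taken from the labels, and replicate numbers, given in accession order, only name sections. UMIs were summed per section and spot class, Ins1, Ins2 and Iapp were removed, and the sums were fitted by edgeR (version 4.0.16, under R 4.3.3) using its quasi-likelihood test and TMM. Genes were kept by filterByExpr (minimum count 10), and p-values were adjusted after Benjamini-Hochberg with a threshold of 0.05. Section was a block between spot classes and in the interaction. The labels do not say that each section came from its own mouse, so the spread between these 4 sections may be technical in part. edgeR estimates that spread with information shared over all genes, so a gene's p-value does not measure its own spread alone. The SE given for edgeR fits is the absolute log2 fold change over the square root of the F statistic. Ratios were compared by two-sided exact permutation tests. Alternatives were DESeq2 1.42.0, library sizes without TMM, no filter, 28 digestive enzyme genes left out, the 100 or 50 highest-scoring spots, a score over non-enzyme UMIs, spots chosen on a random part of the UMIs and read on the rest, thinning to 500 UMIs, no section block and each section left out. The total with deprecated features, a score of at least 2% and the slide as a block were added after seeing the data. The fits were tested on simulated data. Sums, ratios and plots were made in Python 3.11.15 (scipy 1.17.1, numpy 2.4.6, matplotlib 3.10.9, pandas 2.3.3).

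The spots and gene lists were chosen with earlier results of these data known. Named are the list members, Ehmt2 and, among called genes with one direction in all sections (between genotypes, no overlap), the 10 highest and 5 lowest log2 fold changes between spot classes and the 5 highest and 5 lowest in the genotype fits. Other called genes named were chosen after their values were seen. Promoters were matched by symbol in a RefSeq table, where Ins1, Iapp and Gcg had entries, as had 120 of the genes called higher. A few list members are not reported here by name.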

Additional observations from a re-analysis of the deposited data

Results flagged for a closer look

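For 14 genes the genotype difference was not the same in beta-rich and in other spots by edgeR's interaction test, and for 7 of them the value in beta-rich spots was the lower. The calls were not stable, with 0 genes by DESeq2, 0 after thinning, 1 without enzyme genes and 0 to 1665 when 1 section was left out. The log2 differences (beta-rich minus other) were -3.45 for Irx1, -3.26 for Slc30a8, -3.07 for Ppy, -2.80 for Lrp8, a lipoprotein receptor gene, -2.32 for Baiap3, which takes part in dense-core granule traffic, -1.98 for Pyy and -1.90 for Mafa. They were higher for Rab27a (1.66), Fam174b (1.73), Nfasc (1.82), Rnase4 (1.91), Gadd45g (1.95), Rap1gap2 (2.26) and Gnptab (2.93). Gnptab, a gene of lysosomal enzyme sorting, had 18, 0, 10 and 11 UMIs in the beta-rich spots of Ehmt2 +/+ replicates 1 and 2 and Ehmt2 fl/fl replicates 1 and 2, so that its difference rests on few molecules.

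A signal of the 3 genes was also found outside the spots compared. In spots with under 100 UMIs, where little or no tissue is to be assumed, Ins1, Ins2 and Iapp made up 0.0740, 0.0330, 0.186 and 0.0307% of UMIs in the same order of sections (148 of 199949, 43 of 130248, 198 of 106359 and 36 of 117386 UMIs), where a count of 0 would allow 0.00150, 0.00230, 0.00282 and 0.00256%. In all spots with at least 500 UMIs, beta-rich ones included, the shares were 0.0879, 0.0569, 0.619 and 0.0725%. In the other spots, without the beta-rich ones, they were 0.0148, 0.0196, 0.110 and 0.0156%. The spots with under 100 UMIs thus held a larger share than the other spots in every section, and the cause was not tested.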

How the results depend on the processing

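The replicate numbers used here follow accession order and coincide with the slides. Sections were paired only by slide, which held 1 section of each genotype. The slide served as a block only in an alternative added later and not in the main genotype fits. Against 157 genes higher and 14 lower in beta-rich spots, library sizes without TMM gave 439 and 9, spots chosen on one part of the UMIs and read on the rest 93 and 25, thinning to 500 UMIs 45 and 1, and no section block 23 and 0 (273 at an unadjusted p under 0.05). DESeq2 gave 136 and 8, the 100 highest-scoring spots 155 and 175, and the 50 highest-scoring 153 and 906. Leaving out 1 section gave 95 to 166 higher and 2 to 13 lower. Of the genes named for this comparison, 612 of 726 values kept the call, 114 lost it and 0 changed direction. Between genotypes in beta-rich spots (14 genes), DESeq2 gave 74, no TMM 1180, no filter 32, the 100 and 50 highest-scoring spots 57 and 44, the score over non-enzyme UMIs 41, the split of UMIs 81, thinning 54, deprecated features in the total 46, a score of at least 2% 125 and the slide block 73, with 0 to 493 when 1 section was left out. The split of calls went from 21.4% higher to 97.4% without TMM. In the other spots (11 genes higher and 14 lower), library sizes without TMM gave 392 higher and 12 lower, DESeq2 9 and 497, thinning 15 and 30 and the slide block 11 and 1, with 0 to 9409 higher and 0 to 7320 lower when 1 section was left out. For the interaction (14 genes), DESeq2 gave 0, no TMM 91 (2 higher and 89 lower), no enzyme genes 1, the 50 highest-scoring spots 8, thinning 0, a score of at least 2% 494 and the slide block 24, with 0 to 1665 when 1 section was left out. The causes were not tested. The differences between genotype means of the ratios and of the share of spots kept their sign, although on slide 2 the share of spots was lower in Ehmt2 fl/fl without enzymes (11.2 against 13.0%) and for at least 2 UMIs (3.71 against 4.35%), with ranges over left-out sections of 3.45 to 6.19 for the Ins1 share, -15.8 to -9.78 for Iapp per 100 insulin UMIs, -38.0 to -13.6 for Gcg per 100 Chga UMIs and 0.577 to 14.9 for the share of spots. Depth limited the genotype comparison in the beta-rich spots to 2902 genes with enough UMIs.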

Other observations

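The duct keratin gene Krt7 was higher in beta-rich than in other spots of all 4 sections, at 117, 134, 369 and 327 CPM against 40.7, 44.6, 189 and 198.9 (Ehmt2 +/+ replicates 1 and 2, then Ehmt2 fl/fl replicates 1 and 2), but edgeR did not call it (log2 fold change 0.72 ± 0.29, SE, edgeR adjusted p = 0.49) and DESeq2 did. Another duct keratin, Krt19, was at 145, 223, 116 and 139 CPM against 168, 259, 168 and 133 (-0.72 ± 0.31, adjusted p = 0.51). Both genes were singled out after their values were seen.

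Sst, per 100 insulin UMIs of the beta-rich spots, was 2.90 and 5.43 in Ehmt2 +/+ and 0.324 and 0.927 in Ehmt2 fl/fl, and Gcg 11.8 and 6.93 against 1.52 and 2.97. Insulin is the divisor and chose the spots, so these ratios carry no test. Apoe, an apolipoprotein gene of macrophages among other cells, was at 49.0, 70.1, 541 and 139 CPM in the beta-rich spots. In the other spots it was at 33.7, 74.3, 617 and 166 CPM. It was not called between genotypes in beta-rich spots (log2 fold change 1.62 ± 0.63, SE, edgeR adjusted p = 0.31). The call turned with the scaling, since Apoe was called higher without TMM (2.90 ± 0.66, edgeR adjusted p = 0.021). The median of all genes was then 1.26.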
